A study of Mus musculus with 16 samples.

Results

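The chemokine ligand genes were the 44 gene rows, of 32285 in the count matrices, whose symbol is Ccl, Cxcl, Cx3cl or Xcl followed by a digit. They carried 38 symbols and comprised 30 CC, 12 CXC, 1 CX3C and 1 XC rows. No unique molecular identifier (UMI, the tag that counts 1 captured transcript) was assigned to 11 of the rows in any cell. Of the other 33 rows, 24 held at least 100 UMIs in the tagged cultures and 9 held fewer, between 7 for Ccl1 and 73 for Ccl28. The 9 low rows were Ccl28, Ccl22, Cxcl17, Ccl26, Xcl1, Ccl11, Ccl17, Ccl20 and Ccl1.

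Chemokines are small secreted proteins that bind G protein-coupled receptors and direct the migration of blood and tissue cells along concentration gradients. Inflammatory chemokines such as Ccl2, Ccl3 and Cxcl2 are induced in activated macrophages and other cells and recruit monocytes, T cells and neutrophils. Homeostatic chemokines such as Cxcl12 are made steadily by bone marrow stromal cells, where Cxcl12 retains hematopoietic stem and progenitor cells through its receptor Cxcr4. Cxcl16 and Cx3cl1 are made as membrane-anchored proteins and are released by the proteases Adam10 and Adam17.

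The ligands were measured by single-cell RNA-seq of mouse bone marrow stromal cell (BMSC) cultures, which contain adherent macrophages besides mesenchymal cells, after 21 days of osteogenic culture with 10 mM beta-glycerophosphate. The cells came from adult male C57BL/6J littermates, and every genotype carried floxed Fgf23 alleles (Fgf23 fl/fl), the WT controls included. WT cells were Dmp1+/+ without Cre, Fgf23cKO cells were Dmp1+/+ with Dmp1-cre, Dmp1KO cells were Dmp1-/- without Cre, and Dmp1KO/Fgf23cKO cells were Dmp1-/- with Dmp1-cre. The Dmp1 null allele was present in all cells, whereas Cre was driven by the Dmp1 promoter, which is active in mature osteoblasts and osteocytes, so Fgf23 recombination was directed to those cells only. The 3 cultures of a genotype were marked with oligonucleotide tags and pooled in 1 droplet reaction, so that genotype and pool cannot be told apart. Each pool also yielded untagged cells, which belong to no known culture and were kept out of the tests.

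The 15 libraries used here held 17793 cells, of which 14577 were in 11 tagged cultures (3 WT, 3 Fgf23cKO, 2 Dmp1KO and 3 Dmp1KO/Fgf23cKO) and 3216 were untagged. Dmp1KO culture 1 was not used here. Tagged cultures held 9518928 to 72482185 UMIs, and the median per cell was 7137 to 7276 in WT, 29753 to 34988 in Fgf23cKO, 20017 to 22186 in Dmp1KO and 32378 to 33881 in Dmp1KO/Fgf23cKO cultures. Cells with over 20% mitochondrial UMIs made up 3.40% to 7.28% of WT and Dmp1KO cultures and 12.2% to 16.6% of the cultures that carried Cre. In all, 35 cell barcodes occurred in more than 1 library, and 0 of them within a genotype. As a check of the labels, Dmp1 in stromal-like cells stood at 296 to 710.4 CPM (UMIs of the gene per 1000000 UMIs of the class) in WT and 58.3 to 368 CPM in Fgf23cKO cultures, against 0 and 0.982 CPM (3 UMIs) in Dmp1KO and 7.06 to 14.7 CPM (149 UMIs) in Dmp1KO/Fgf23cKO cultures.

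Shown here, by the 250 bases before their start sites, are 2 pairs of neighbouring members (Cxcl1 and Cxcl2, Ccl6 and Ccl9) and Cxcl14, whose levels are compared between genotypes further on. Ccl2, Ccl4 and Ccl7 were not matched. Sequences are from RefSeq, build GRCm38.p6, on the gene's strand, where 33 promoters of 27 ligand symbols were matched. Capitals mark the letters of a kappa-B motif (GGGA, any base, TTTCC) in Cxcl1 and Cxcl2, an AP-1 motif (TGANTCA) in Ccl9 and an interferon response motif (GAAA, 2 free bases, GAAA) in Cxcl14, each searched on both strands and with no overlap between them.
Cxcl1 (chr5:90890995-90891244, plus strand): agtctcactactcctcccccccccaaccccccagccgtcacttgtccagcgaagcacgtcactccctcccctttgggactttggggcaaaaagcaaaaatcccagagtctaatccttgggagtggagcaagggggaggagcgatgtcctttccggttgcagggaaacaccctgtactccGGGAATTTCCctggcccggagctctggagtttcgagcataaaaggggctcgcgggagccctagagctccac
Cxcl2 (chr5:90903649-90903898, plus strand): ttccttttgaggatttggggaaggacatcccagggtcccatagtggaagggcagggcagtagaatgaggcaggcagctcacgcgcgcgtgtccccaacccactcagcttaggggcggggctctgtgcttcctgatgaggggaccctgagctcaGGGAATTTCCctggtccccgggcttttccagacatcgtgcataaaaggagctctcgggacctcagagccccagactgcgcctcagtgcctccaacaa
Ccl9 (chr11:83578637-83578886, minus strand): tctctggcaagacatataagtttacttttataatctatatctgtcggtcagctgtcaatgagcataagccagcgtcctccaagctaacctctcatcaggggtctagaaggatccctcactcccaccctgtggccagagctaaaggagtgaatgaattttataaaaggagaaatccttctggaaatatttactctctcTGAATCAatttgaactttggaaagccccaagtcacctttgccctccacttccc
Ccl6 (chr11:83593088-83593337, minus strand): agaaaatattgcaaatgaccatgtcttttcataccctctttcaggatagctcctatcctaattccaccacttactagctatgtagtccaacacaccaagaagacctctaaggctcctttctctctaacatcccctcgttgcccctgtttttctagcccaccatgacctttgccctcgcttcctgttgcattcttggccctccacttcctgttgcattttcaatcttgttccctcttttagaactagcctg
Cxcl14 (chr13:56296552-56296801, minus strand): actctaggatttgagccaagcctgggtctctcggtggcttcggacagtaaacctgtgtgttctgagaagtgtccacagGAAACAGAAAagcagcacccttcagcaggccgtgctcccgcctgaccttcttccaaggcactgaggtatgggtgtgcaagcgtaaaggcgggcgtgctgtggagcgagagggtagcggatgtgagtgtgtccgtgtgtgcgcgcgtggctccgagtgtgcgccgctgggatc
The kappa-B letters lay 71 bases before the start of Cxcl1 and 97 bases before that of Cxcl2, and 0.356% of 32851 mouse promoters of this length held them, as did Cxcl3. The AP-1 letters lay 53 bases before the start of Ccl9 and were held by 6.75% of promoters, and the interferon response letters lay 172 bases before the start of Cxcl14 and were held by 2.98%. None of the 3 motifs was found in the Ccl6 window. These matches describe letters and no binding was measured.

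The first question was which cells carried each ligand. The inflammatory ligands were carried by macrophages and the cells related to them, while Cxcl12, Ccl19, Cxcl13 and Cx3cl1 were carried by mesenchymal cells. Ccl19 and Cxcl13 had UMIs in only 23 and 22 of all cells. Cells were grouped into 21 clusters without use of the ligand genes, and clusters were named from fixed marker lists. The phagocyte-like class (mononuclear phagocyte markers) held 8357 tagged cells, or 57.33%, and the stromal-like class (contractile, fibroblastic and osteoblast clusters) held 927, or 6.359%. A further 1110 cells were cycling-like.

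The classes matched their markers. In phagocyte-like cells, 25 of 27 mononuclear phagocyte markers were detected in at least 25% of cells and their sum was 43717 to 56234 CPM per culture, while Ly6c2 stood at 0, and the 3 stromal marker sums were 42 to 262 CPM. In stromal-like cells, the fibroblastic list summed to 12208 to 30109 CPM and the osteoblast list to 9665 to 72393 CPM. The phagocyte list still summed to 3266 to 11137 CPM there, and single phagocyte reference genes stood at 5.41% to 22.4% of their phagocyte-like level. How these transcripts came to be counted in stromal-like cells was not tested. In the opposite direction, stromal reference genes stood at only 0.162% to 1.12% of their stromal-like level in phagocyte-like cells.

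The tagged cultures held 737229 ligand UMIs, and 8 members accounted for 89.525% of them. These were Ccl2 with 151340 UMIs, Ccl4 with 91858, Ccl3 with 88905, Cxcl2 with 87410, Ccl7 with 82388, Cxcl16 with 62197, Ccl6 with 49389 and Ccl9 with 46519. UMIs count 1 end of each transcript, so that these totals do not scale with transcript length. Phagocyte-like cells held 58.042% of all UMIs and 66.951% of ligand UMIs, stromal-like cells 10.936% and 4.2741%, and cycling-like cells 13.071% and 14.594%.

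**Figure D1:**
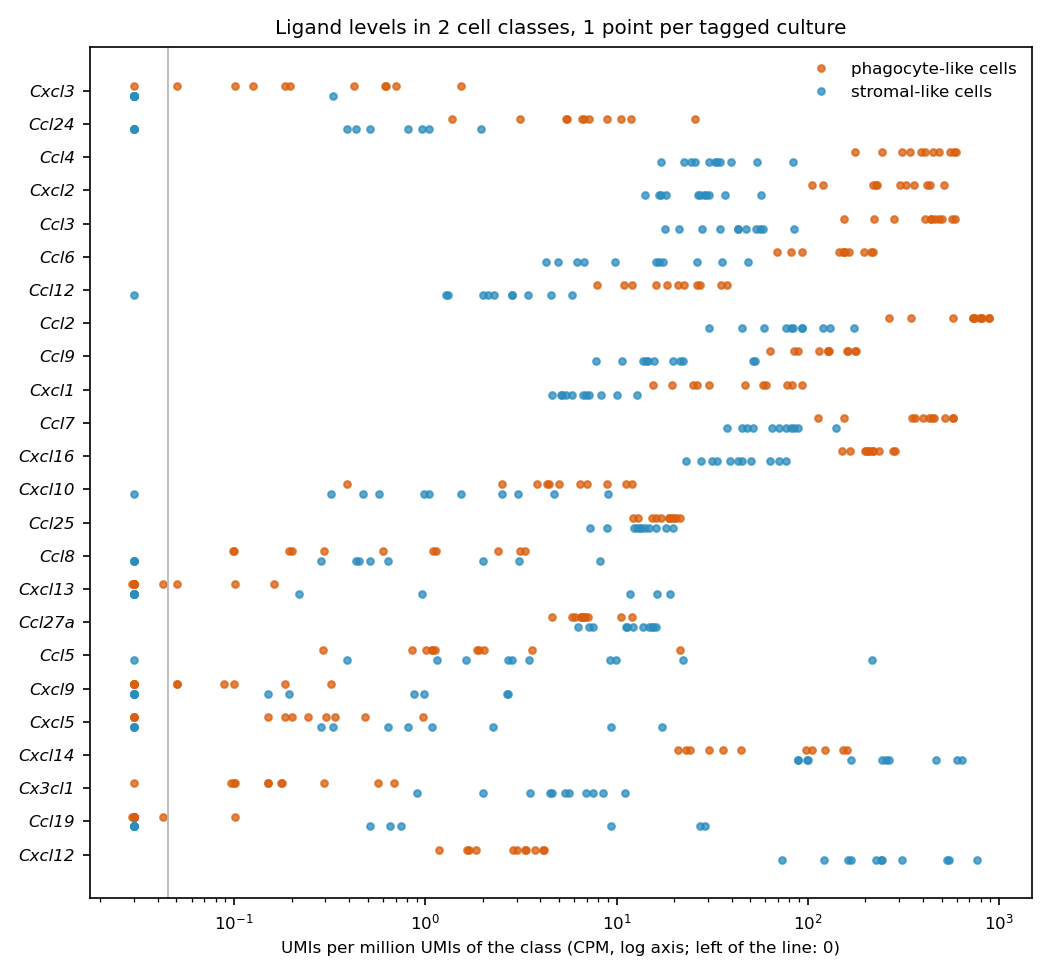
Level of each ligand with at least 100 tagged UMIs in phagocyte-like and in stromal-like cells. Points are the 11 tagged cultures on a log axis of CPM, with cultures at 0 drawn left of the line. Ccl2, Ccl3, Ccl4 and Cxcl2 lie higher in phagocyte-like cells, and Cxcl12 and Cx3cl1 lie higher in stromal-like cells in all 11.

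Of the 24 ligands with at least 100 UMIs, 10 were higher in phagocyte-like than in stromal-like cells in every one of the 11 cultures. They were the monocyte attractants Ccl2 and Ccl12, the macrophage inflammatory proteins Ccl3 and Ccl4, the Ccr1 ligands Ccl6 and Ccl9, the neutrophil attractants Cxcl1 and Cxcl2, the eosinophil attractant Ccl24 and the Cxcr6 ligand Cxcl16. Ccl7, a further monocyte attractant, was higher in 10 of 11. The share of tagged UMIs found in phagocyte-like cells was 72.21% for Ccl2, 77.169% for Ccl7, 76.513% for Ccl3, 71.628% for Ccl4, 65.466% for Cxcl2 and 78.888% for Ccl24, compared with 58.042% of all UMIs.

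The median stromal-like level was 12.8% of the phagocyte-like level for Ccl2, 15.7% for Ccl7, 11.1% for Ccl3, 7.83% for Ccl4 and 8.23% for Cxcl2. As a percent of the phagocyte-like level, the stromal-like level of Ccl4 exceeded that of every phagocyte reference gene in 2 of 11 cultures. For Cxcl2 this was so in 3, for Ccl3 in 5, for Ccl2 in 6 and for Ccl7 in 9. The count was 3 for Ccl24, 4 for Ccl6, 6 for Ccl12, 8 for Cxcl1 and 9 for Ccl9. For Cxcl16 this percent exceeded that of every phagocyte reference gene in 11 of 11 cultures, with a median of 20.7%.

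In contrast, 3 ligands were higher in stromal-like cells in all 11 cultures: Cxcl12, the membrane-anchored Cx3cl1 and Ccl27a, a skin-homing ligand of Ccr10. Stromal-like cells held 92.868% of Cxcl12 UMIs, 97.196% of Ccl19 (a Ccr7 ligand that guides T cells and dendritic cells), 91.667% of Cxcl13 (the B cell attractant) and 81.041% of Cx3cl1 UMIs. Of the clusters in this class, Cxcl12 was at 295 CPM in contractile cluster 9 and 412 CPM in fibroblastic cluster 13, and at 6.25 CPM in osteoblast cluster 17. In WT cultures, it was at 576.1 ± 134 CPM (SD, n = 3) in contractile, 974.9 ± 483 CPM in fibroblastic and 2.66 ± 2.49 CPM in osteoblast cells. Cxcl12 was therefore carried by the contractile and fibroblastic cells and was close to its phagocyte-like level of 1.18 to 4.16 CPM in the osteoblast cells. Ccl27a and Ccl19 have near-identical genomic copies whose reads cannot be assigned with certainty, and the level of Ccl27a, at a median of 165% of the phagocyte-like level, was no longer higher in all 11 cultures when low-quality cells were removed.

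Cxcl14, a CXC ligand found in many epithelia and stromal cells, was carried by both compartments. Phagocyte-like cells held 49.558% of its UMIs and stromal-like cells 22.801%, and its level was higher in stromal-like cells in 9 of 11 cultures, at a median of 326% of the phagocyte-like level over all 11. Among stromal-like cells of WT cultures, Cxcl14 was at 486.2 ± 80.2 CPM in contractile and 811.2 ± 314 CPM in fibroblastic cells, and at 7.887 ± 13.7 CPM in osteoblast cells (SD, n = 3). Among phagocyte-like clusters, it was at 190.0 CPM in cluster 2 (led by Mmp12 and Itgax) and 165 CPM in cluster 8 (led by Fgf13, Lpl and Spp1), against 23.8 CPM in cluster 0 (led by Marco and Slc40a1). In all 11 cultures, its phagocyte-like level as a percent of its stromal-like level exceeded that percent for every stromal reference gene.

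The ligands also separated the phagocyte-like clusters from each other. Ccl2 was at 936 CPM in cluster 0 and 980.5 CPM in cluster 1 (led by F13a1, Cd86 and Mrc1), but at 97.1 CPM in cluster 2. Ccl3, at 504, 600.4 and 73.7 CPM, and Ccl4, at 599.7, 496 and 66.9 CPM in the same 3 clusters, were likewise lowest in cluster 2. Cxcl2 had another order, with 506 CPM in cluster 1, 388 CPM in cluster 6 (led by Slc7a11, Gdf15 and Srxn1), 113 CPM in cluster 0 and 68.4 CPM in cluster 2. Ccl9 reached 466 CPM in osteoclast-like cluster 15, compared with 93.1 to 225 CPM in the phagocyte-like clusters 0, 1, 2, 6 and 8. These levels are descriptions, since the clusters were made from the same cells.

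Cell-to-cell spread was compared after every cell had been thinned to 2000 UMIs, since cells of the 4 genotypes differed in depth. The Fano factor (variance over mean), which is 1 for random sampling from equal cells, exceeded 2 in phagocyte-like cells of every culture for 2 of 14 ligands, Cxcl2 and Ccl2. The Fano factor of Cxcl2 was 2.78 to 6.82 with a median of 4.63 over the 11 cultures, and that of Ccl2 was 2.53 to 4.25 with a median of 3.09. Ccl4 (median 3.41, range 1.80 to 8.29), Ccl7 (2.54) and Ccl3 (2.12) followed, while Ccl6 (1.94), Ccl9 (1.80) and Cxcl1 (1.77) were lower. The median for Cxcl16 was 1.21, at a mean of 0.428 UMI per thinned cell. That of Ccl25, a Ccr9 ligand, was 1.03 over 7 cultures, at a mean of 0.0390 UMI per thinned cell. At so low a mean a moderate spread moves the Fano factor little, but the mean does not fix it near 1. Ccl12, at a mean of 0.0520 UMI, had a median of 1.68 over 7 cultures. Thinning removed cells with fewer than 2000 UMIs, which numbered 855 of 5604 in WT, 526 of 2923 in Fgf23cKO, 547 of 6439 in Dmp1KO and 471 of 2827 in Dmp1KO/Fgf23cKO cells. These counts take in the untagged cells and all clusters. In the WT cultures, thinning left 677 of 687, 1427 of 1435 and 1165 of 1176 phagocyte-like cells. Of stromal-like cells it left 82 of 99, 52 of 72 and 107 of 134.

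**Figure D2:**
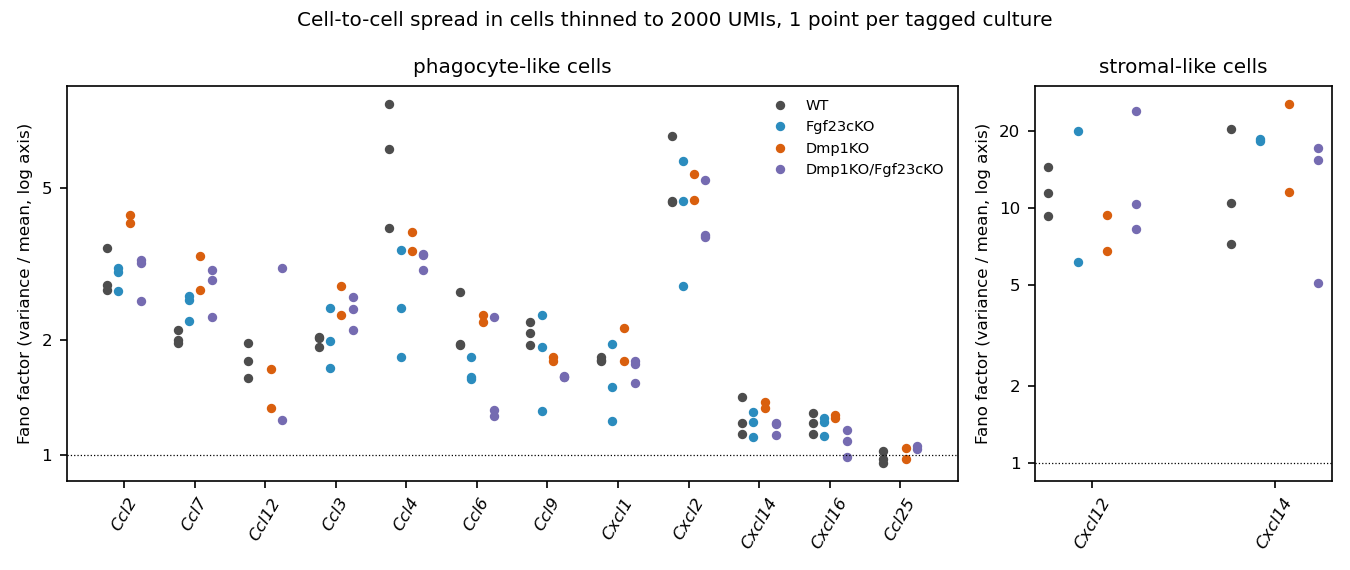
Fano factor (variance over mean, log axis) of ligands over phagocyte-like cells and of Cxcl12 and Cxcl14 over stromal-like cells, all thinned to 2000 UMIs. Points are single tagged cultures coloured by genotype, the dotted line marks 1, and in phagocyte-like cells Cxcl2 and Ccl2 lie above 2 in every culture while Cxcl16 lies near 1.

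Ligand transcripts were thus concentrated in a minority of cells for some members. The 10% of phagocyte-like cells with the most Cxcl2 UMIs held a median of 73.6% of them, compared with 59.6% for Ccl4 and 41.97% for Ccl2. Within cultures, the neighbouring genes Ccl2 and Ccl7 (chr11:82035571-82037453 and chr11:82045712-82047525, mm10) varied together from cell to cell, with a median Pearson r of 0.54 (range 0.43 to 0.66) over 11 cultures. For Ccl3 and Ccl4 the median was 0.29, for Ccl2 and Ccl3 0.28, for Cxcl2 and Ccl4 0.16, for Ccl6 and Ccl9 0.10 and for Ccl2 and Cxcl16 -0.07. These correlations are across cells of 1 library, which share depth after thinning but not cluster, and are given as descriptions.

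In stromal-like cells the spread was wider still. The Fano factor over thinned cells had a median of 9.89 (6.15 to 24.1, 10 cultures) for Cxcl12 and 16.4 (5.09 to 25.6) for Cxcl14, and the top 10% of cells held a median of 90.9% and 93.7% of their UMIs. Cxcl12 and Cxcl14 varied together from cell to cell, with an r of 0.79 to 0.84 across the stromal-like cells of the 3 WT cultures and 0.28 to 0.75 in the other 8. This r was taken from unthinned counts scaled to the UMIs of each cell. Osteoblast cells, low in both genes, made up a different share of the class in each genotype. Single cells could decide a culture's level. In Fgf23cKO culture 2, 1 fibroblastic cell held 1325 of 1718 Cxcl12 UMIs and 1374 of 1994 Cxcl14 UMIs among 41 stromal-like cells.

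Levels across the 4 genotypes were compared with sums of UMIs per class and tagged culture, in edgeR's quasi-likelihood test with Benjamini-Hochberg adjustment over all genes tested in a class, where an adjusted p under 0.1 was called. The test applied TMM scaling factors, which were 0.817 and 0.854 in Dmp1KO and 1.02 to 1.07 in the other phagocyte-like sums. CPM levels and overlaps are given without these factors. Dmp1KO phagocyte-like levels in CPM therefore stand lower against WT than the fold changes do. In phagocyte-like cells Ccl2, Ccl7, Ccl3 and Ccl4 were lowest in Dmp1KO cultures, Ccl6 and Ccl9 were highest there, Cxcl1 and Cxcl2 were higher in each mutant genotype than in WT, and Cxcl14 was several-fold higher in Fgf23cKO and Dmp1KO but much less so in the double mutant. The filter on low counts was passed by 18 of 44 ligands and 13114 genes. In Dmp1KO relative to WT, 5 ligands rose and 9 fell, where 37.0% of all genes rose and 35.1% fell (72.1% called in all). The 14 calls in 18 are thus near the share over all genes, and the counts do not set the ligands apart. The median log2 fold change was -0.51 over these ligands and 0.00 over all genes.

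In Fgf23cKO relative to WT, 7 ligands rose and 6 fell, where 24.7% of all genes rose and 23.6% fell (48.3%). In Dmp1KO/Fgf23cKO relative to WT, 7 rose and 7 fell, where 27.7% of all genes rose and 28.2% fell (55.9%). In Dmp1KO/Fgf23cKO relative to Dmp1KO, 12 rose and 4 fell, where 31.9% of all genes rose and 38.6% fell (70.5%). The Dmp1KO effect itself differed with and without Fgf23cKO for 13 ligands, 8 of which had a higher and 5 a lower effect in the Fgf23cKO background, where 29.9% of all genes had a higher and 34.2% a lower effect (64.1%).

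The phagocyte-like class was not made of the same cells in each genotype. Cluster 0 held 86.173% of phagocyte-like cells in WT, cluster 1 held 61.341% in Fgf23cKO, and cluster 2 held 44.248% in Dmp1KO, followed by cluster 1 with 25.946% and cluster 8 with 25.91%. Unnamed cluster 3, which carried phagocyte markers but was led by Cd74, H2-Ab1 and Ighm, and unnamed cluster 4, led by Ddit3 and Atp6v0d2, held 17.854% and 14.015% of tagged Dmp1KO cells and lay outside the class. With clusters 3 and 4 included, 6 ligands rose and 8 fell in Dmp1KO relative to WT, where 35.7% of all genes rose and 34.5% fell. The sum of 10 early response and heat shock genes (chosen after the data had been seen) was also lowest in Dmp1KO phagocyte-like cells, at 1287 to 1289 CPM, against 1633 to 1925 CPM in the other 3 genotypes. These sums are without the scaling factors of the tests, which would narrow the gap. The part of these genes in the ligand differences was not tested.

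**Figure D3:**
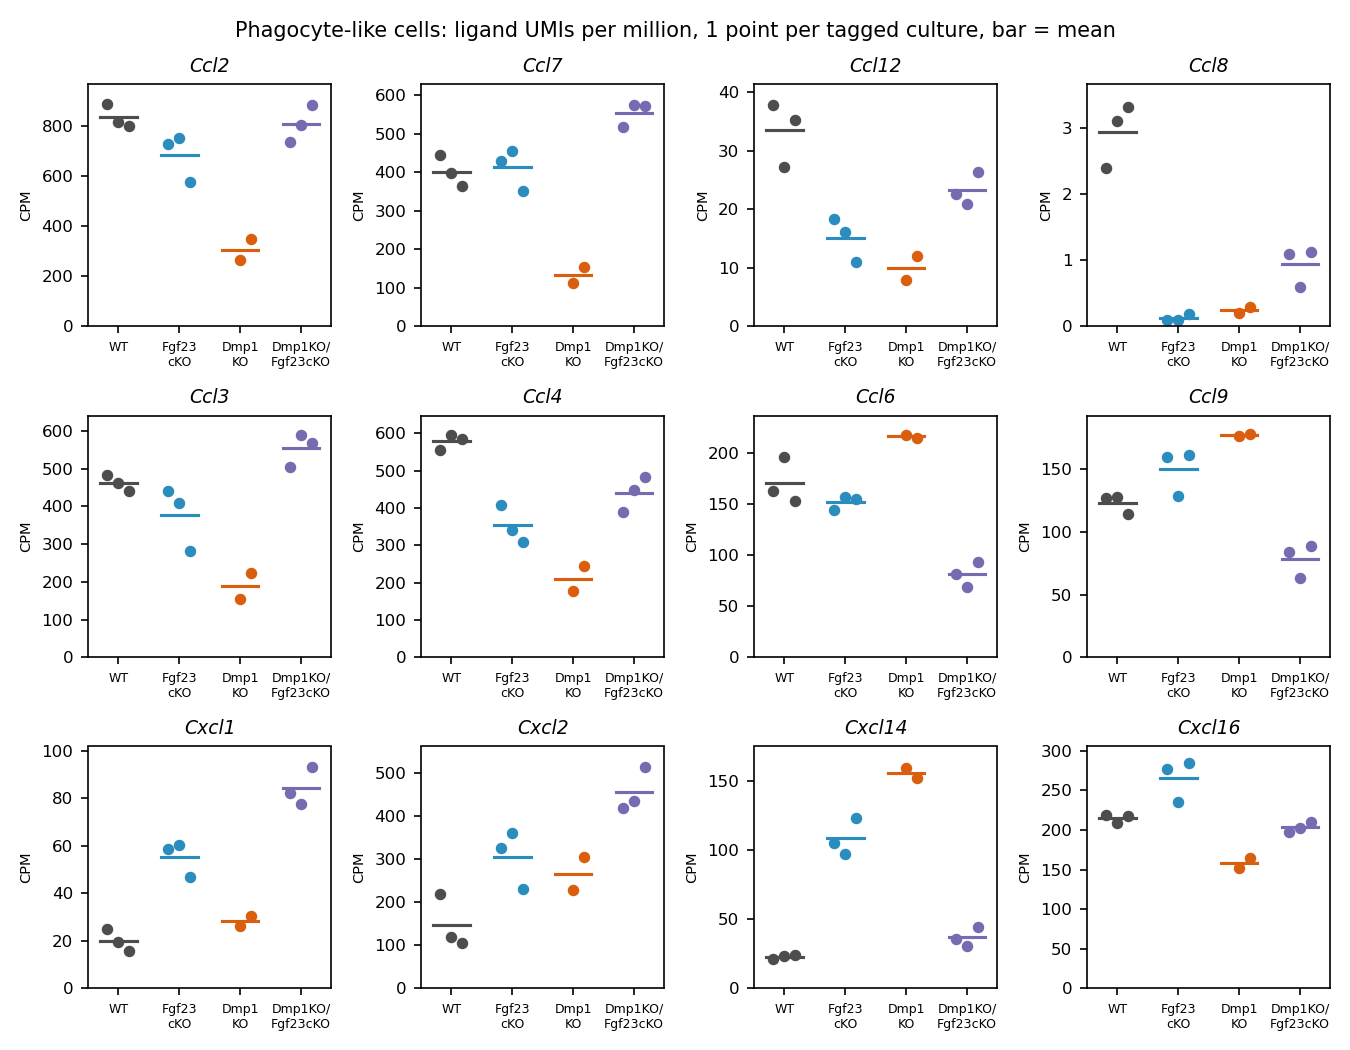
Level of 12 ligands in phagocyte-like cells by genotype, with 1 panel per ligand. Points are tagged cultures and bars mark the mean, in CPM, and the Dmp1KO cultures are the lowest for Ccl2, Ccl7, Ccl3 and Ccl4 and the highest for Ccl6, Ccl9 and Cxcl14.

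Of the monocyte attractants, which signal through Ccr2, Ccl2 was at 887, 814 and 797 CPM in WT, 729, 749 and 575 CPM in Fgf23cKO, 265 and 348 CPM in Dmp1KO, and 733, 801 and 883 CPM in Dmp1KO/Fgf23cKO cultures (values in order of culture number throughout). Both Dmp1KO cultures lay below all others, Fgf23cKO lay slightly below WT, and the double mutant overlapped with WT. The log2 fold change of Ccl2 was -1.15 (SE 0.11, adjusted p = 1.9e-07) in Dmp1KO and -0.29 (SE 0.10, adjusted p = 0.025) in Fgf23cKO, while the double mutant was not called against WT (-0.10, adjusted p = 0.44). The Fgf23cKO call was lost without Fgf23cKO culture 3 (-0.19). Relative to Dmp1KO, Ccl2 rose by a log2 fold change of 1.053 in the double mutant (adjusted p = 5.0e-07).

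Ccl7 was at 444, 398 and 364 CPM in WT, 430.3, 456 and 351 CPM in Fgf23cKO, 113 and 154 CPM in Dmp1KO, and 519, 575 and 571 CPM in Dmp1KO/Fgf23cKO cultures. The Dmp1KO cultures were the lowest and the double mutant cultures the highest, without overlap with WT in either case. The log2 fold change against WT was -1.30 in Dmp1KO (SE 0.12, adjusted p = 7.1e-08), 0.03 in Fgf23cKO (adjusted p = 0.85) and 0.42 in the double mutant (SE 0.10, adjusted p = 0.0027).

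Ccl12, mouse MCP-5, was at 37.8, 27.2 and 35.3 CPM in WT, 18.2, 16.02 and 10.9 CPM in Fgf23cKO, 7.92 and 12.0 CPM in Dmp1KO, and 22.6, 21.0 and 26.3 CPM in Dmp1KO/Fgf23cKO cultures. All mutant cultures lay below all WT cultures, with log2 fold changes of -1.14 in Fgf23cKO (adjusted p = 1.0e-04), -1.44 in Dmp1KO (adjusted p = 2.4e-06) and -0.56 in the double mutant (adjusted p = 0.0074). Ccl8 was sparse, with 81 UMIs in WT, 4 in Fgf23cKO, 18 in Dmp1KO and 52 in Dmp1KO/Fgf23cKO phagocyte-like cells, or 2.40 to 3.33, 0.0983 to 0.194, 0.200 to 0.294 and 0.602 to 1.13 CPM. Its levels in each mutant genotype lay below WT without overlap, and the fold change in Fgf23cKO rested on those 4 UMIs.

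Ccl3 and Ccl4 are macrophage inflammatory proteins that attract monocytes and T cells, and Ccl3 binds Ccr1. Ccl3 was at 483, 462 and 440.2 CPM in WT, 441, 408 and 281 CPM in Fgf23cKO, 154 and 223 CPM in Dmp1KO, and 505, 589 and 567 CPM in Dmp1KO/Fgf23cKO cultures. Ccl4 was at 555, 596 and 584 CPM in WT, 409, 342 and 309.9 CPM in Fgf23cKO, 177 and 245 CPM in Dmp1KO, and 389, 449 and 484 CPM in Dmp1KO/Fgf23cKO cultures. The Dmp1KO cultures were again lowest for both genes, whereas Ccl4 was lower than WT in all mutant cultures and Ccl3 was not. In Dmp1KO the log2 fold change was -1.003 for Ccl3 (SE 0.15, adjusted p = 2.2e-05) and -1.16 for Ccl4 (SE 0.12, adjusted p = 3.6e-07). In Fgf23cKO Ccl4 fell by 0.73 on the log2 scale (adjusted p = 5.8e-05), and Ccl3 by 0.31 (adjusted p = 0.077) with overlap between the cultures, a call that was lost without any WT culture or without Fgf23cKO culture 3. In the double mutant Ccl4 fell by 0.44 (adjusted p = 0.0024), and Ccl3 was not called (0.21, adjusted p = 0.19).

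Ccl5, or RANTES, was at 0.291 to 3.60 CPM in 10 of the 11 cultures and at 21.6 CPM in Dmp1KO/Fgf23cKO culture 3. Its call in the double mutant against WT (log2 fold change 1.96, adjusted p = 0.073) therefore rested on 1 culture, and the groups overlapped.

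Ccl6 and Ccl9, neighbouring Ccr1 ligands of the macrophage lineage (chr11:83587882-83593087 and chr11:83572919-83578636, mm10) whose promoters are shown above, changed in the other direction. Ccl6 was at 163, 197 and 153 CPM in WT, 145, 157 and 155 CPM in Fgf23cKO, 218 and 215 CPM in Dmp1KO, and 81.9, 69.3 and 93.5 CPM in Dmp1KO/Fgf23cKO cultures. Ccl9 was at 127, 127 and 114 CPM in WT, 159.9, 129 and 161 CPM in Fgf23cKO, 176 and 178 CPM in Dmp1KO, and 84.3, 63.1 and 88.6 CPM in Dmp1KO/Fgf23cKO cultures. For both, Dmp1KO cultures were the highest and double mutant cultures the lowest of all. Relative to WT, Ccl6 rose by a log2 fold change of 0.63 in Dmp1KO (SE 0.10, adjusted p = 5.3e-05) and fell by 1.13 in the double mutant (adjusted p = 1.8e-07). Ccl9 rose by 0.83 in Dmp1KO (SE 0.11, adjusted p = 6.8e-06) and by 0.28 in Fgf23cKO (adjusted p = 0.048), a call that was lost without WT culture 3 or Fgf23cKO culture 1 or 3, and fell by 0.70 in the double mutant (adjusted p = 5.6e-05). Between Dmp1KO and the double mutant the log2 difference was -1.76 for Ccl6 (adjusted p = 6.9e-10) and -1.52 for Ccl9 (adjusted p = 6.1e-09).

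Cxcl1 and Cxcl2, neutrophil attractants that bind Cxcr2, lie next to each other on chromosome 5 (chr5:90891241-90893115 and chr5:90903871-90905938, mm10), 13.3 Mb from Dmp1. Cxcl1 was at 25.1, 19.5 and 15.5 CPM in WT, 58.5, 60.3 and 46.7 CPM in Fgf23cKO, 26.4 and 30.4 CPM in Dmp1KO, and 82.4, 77.7 and 93.1 CPM in Dmp1KO/Fgf23cKO cultures. Cxcl2 was at 219.9, 119.6 and 105 CPM in WT, 326, 361 and 230.1 CPM in Fgf23cKO, 228 and 305 CPM in Dmp1KO, and 418, 436 and 514 CPM in Dmp1KO/Fgf23cKO cultures. Every mutant culture lay above every WT culture for both genes, and the double mutant was the highest. The log2 fold change of Cxcl1 was 1.49 in Fgf23cKO (SE 0.13, adjusted p = 4.1e-07), 0.84 in Dmp1KO (SE 0.14, adjusted p = 5.4e-05) and 2.06 in the double mutant (SE 0.12, adjusted p = 2.8e-09). That of Cxcl2 was 1.07 (SE 0.21, adjusted p = 7.5e-04), 1.17 (SE 0.22, adjusted p = 2.3e-04) and 1.61 (SE 0.21, adjusted p = 1.1e-05), in the same order.

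Cxcl14 (chr13:56288643-56296551, mm10) was at 21.0, 23.1 and 24.3 CPM in WT, 105, 97.2 and 124 CPM in Fgf23cKO, 160.0 and 152 CPM in Dmp1KO, and 35.9, 30.3 and 44.6 CPM in Dmp1KO/Fgf23cKO cultures. The 4 genotypes did not overlap with each other, and the order was WT, double mutant, Fgf23cKO and Dmp1KO. Its log2 fold change was 2.22 in Fgf23cKO (SE 0.13, adjusted p = 4.5e-09), 3.06 in Dmp1KO (SE 0.13, adjusted p = 2.1e-11) and 0.61 in the double mutant (SE 0.13, adjusted p = 0.0014). The Dmp1KO effect with Fgf23cKO was lower than the effect without it by a log2 difference of 4.67 (adjusted p = 2.3e-11). The sum of stromal reference genes in phagocyte-like cells was 117 to 134 CPM in WT, 191 to 199 CPM in Fgf23cKO, 47.0 to 50.5 CPM in Dmp1KO and 333 to 340 CPM in the double mutant, and its part in the Cxcl14 differences was not tested.

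Of the other members, Cxcl16, at 219, 209 and 218 CPM in WT, 278, 235 and 284 CPM in Fgf23cKO, 151 and 165 CPM in Dmp1KO and 198, 202 and 209.7 CPM in the double mutant, rose by a log2 fold change of 0.29 in Fgf23cKO (adjusted p = 0.0016). Its fold change in Dmp1KO, -0.15 (adjusted p = 0.073), changed sign to 0.29 when clusters 3 and 4, where Cxcl16 was at 304 and 399 CPM, were included. Ccl24, the eosinophil attractant eotaxin-2, was at 5.54 to 7.16 CPM in WT, 5.42 to 10.5 CPM in Fgf23cKO, 1.38 and 3.12 CPM in Dmp1KO, and 8.90, 11.9 and 25.9 CPM in the double mutant. It fell in Dmp1KO (log2 fold change -1.28, adjusted p = 0.027) and rose in the double mutant (1.12, adjusted p = 0.021), without overlap between the cultures compared, and the Dmp1KO call was lost without Dmp1KO culture 2 (-0.79), while the double mutant value was 0.61 without its culture 3.

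Ccl25, at 15.3 to 16.98 CPM in WT, 18.7 to 20.4 CPM in Fgf23cKO, 12.2 and 13.0 CPM in Dmp1KO and 18.7 to 21.4 CPM in the double mutant, rose by a log2 fold change of 0.27 in Fgf23cKO (adjusted p = 0.019) and 0.28 in the double mutant (adjusted p = 0.0089). Ccl27a was lower than WT in each mutant genotype, by 0.68 in Fgf23cKO (adjusted p = 0.012), 0.38 in Dmp1KO (adjusted p = 0.079) and 0.77 in the double mutant (adjusted p = 0.0026) on the log2 scale, but its cultures overlapped. The interferon-inducible Cxcl10, at 0.387 to 12.0 CPM, was called in no comparison against WT. Cxcl12 was at 1.18 to 4.16 CPM, a median of 0.977% of its stromal-like level, and its call in Fgf23cKO (0.63, adjusted p = 0.079) rested on overlapping cultures.

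Within a single cluster the directions of some ligands, among them Ccl2, Ccl7 and Ccl3, differed from those of the whole class. Ccl9, Cxcl1, Cxcl2 and Cxcl14 were higher in Dmp1KO than in WT in cluster 1 as in the class. Of these, Cxcl1 and Cxcl2 were also called in cluster 6. There Ccl9 (log2 fold change 0.25, adjusted p = 0.44) and Cxcl14 (0.52, adjusted p = 0.16) were not called. For the other mutants, Cxcl2 was not called against WT in cluster 1, at -0.41 in Fgf23cKO (adjusted p = 0.61) and 0.11 in the double mutant (adjusted p = 0.91). Cxcl14 was called there in Fgf23cKO (2.33, adjusted p = 3.4e-04) but not in the double mutant (0.56, adjusted p = 0.6). Cxcl1 was called in both (2.04, adjusted p = 0.058, and 2.65, adjusted p = 0.005). In cluster 1, which held 45 WT, 503 Fgf23cKO, 706 Dmp1KO and 1244 Dmp1KO/Fgf23cKO phagocyte-like cells, 8 of 18 ligands rose in Dmp1KO relative to WT and 0 fell, where 7.91% of all genes rose and 3.13% fell (11.0% called). Among them, Ccl2 was at 703 to 921 CPM in WT and at 1092 and 1238 CPM in Dmp1KO cultures, without overlap (log2 fold change 0.79, SE 0.12, adjusted p = 5.9e-05). Ccl7 was at 291 to 574 CPM in WT and 596 and 727 CPM in Dmp1KO cultures (0.87, SE 0.16, adjusted p = 6.8e-04), and Ccl3 rose by 0.71 (SE 0.16, adjusted p = 0.0047) and Ccl9 by 1.16 (adjusted p = 9.0e-04). Cxcl14 rose by 1.52 (SE 0.46, adjusted p = 0.04), compared with 3.06 over the class. In Fgf23cKO relative to WT, 5 ligands rose and 1 fell in cluster 1, where 7.59% of all genes rose and 2.54% fell (10.1%), and in the double mutant relative to WT, 5 rose and 1 fell, where 7.49% rose and 3.06% fell (10.6%). The WT side of these comparisons rested on 13, 14 and 18 cells per culture with 320 UMIs of Ccl2, and on 3 UMIs of Ccl12, 6 of Cxcl1 and 9 of Cxcl14.

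Between Dmp1KO and the double mutant, where cluster 1 held many cells on both sides, 10 of 18 ligands were lower in the double mutant and 1 was higher, where 12.0% of all genes were lower and 10.4% higher (22.4%). Ccl2 fell by 0.30 on the log2 scale (adjusted p = 0.0038), Ccl4 by 0.56 (adjusted p = 2.7e-04), Cxcl1 by 0.40 (adjusted p = 0.0045) and Cxcl2 by 1.11 (adjusted p = 3.6e-05), all of which were higher in the double mutant over the whole class. Ccl9 fell by 1.68 (adjusted p = 3.6e-16), as in the whole class. The Dmp1KO effect with Fgf23cKO was higher for 0 and lower for 7 ligands in this cluster, where 2.74% and 8.11% of all genes were (10.9%). Cxcl14 also fell within cluster 1, by 0.96 (adjusted p = 5.2e-08), and its means there were 22.3 ± 6.91 CPM in WT, 94.2 ± 7.59 CPM in Fgf23cKO, 53.9 ± 1.49 CPM in Dmp1KO and 28.5 ± 4.22 CPM in the double mutant (SD, n = 3, 3, 2 and 3).

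In cluster 6, with 404 WT, 252 Fgf23cKO, 90 Dmp1KO and 203 double mutant cells, 4 of 14 ligands rose and 1 fell in Dmp1KO relative to WT, where 9.50% of all genes rose and 11.7% fell (21.2%). Cxcl2 rose by a log2 fold change of 1.98 (adjusted p = 3.6e-06), Ccl7 by 1.36 (adjusted p = 0.032) and Ccl3 by 0.65 (adjusted p = 0.023). Ccl9 fell from Dmp1KO to the double mutant in this cluster too, by 1.72 (adjusted p = 8.9e-06). In Fgf23cKO relative to WT, 3 rose and 4 fell, where 15.4% of all genes rose and 17.0% fell (32.4%), and in the double mutant relative to WT, 6 rose and 4 fell, where 18.3% rose and 19.0% fell (37.3%). In the double mutant relative to Dmp1KO, 0 rose and 3 fell, where 3.05% of all genes rose and 2.66% fell (5.72%), and the Dmp1KO effect with Fgf23cKO was higher for 0 and lower for 3 ligands, where 6.12% and 4.59% of all genes were (10.7%). Both single-cluster fits were added after the data had been seen.

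**Figure D4:**
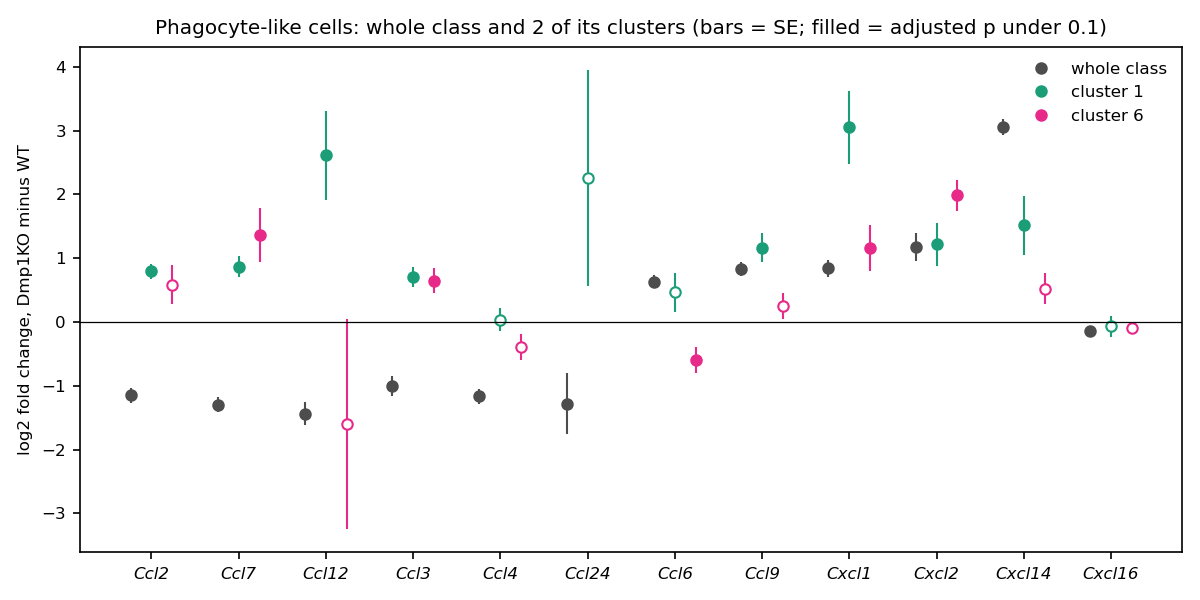
Log2 fold change of each ligand in Dmp1KO relative to WT, over the whole phagocyte-like class and within clusters 1 and 6 alone. Points are estimates, filled where called, and bars are standard errors, and Ccl2, Ccl7 and Ccl3 lie below 0 over the class and above 0 within both clusters, while Cxcl1 and Cxcl2 lie above 0 in all 3.

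In stromal-like cells, with 41 to 134 cells per culture, no ligand rose against WT in any mutant genotype, and Cxcl12 and Cxcl14 were among those that fell in Dmp1KO. The class was made of different cells in each genotype: osteoblast cells were 114 of 305 stromal-like cells in WT, 28 of 136 in Fgf23cKO, 11 of 203 in Dmp1KO and 64 of 283 in the double mutant. The sum of stromal reference genes was 45688 to 68797 CPM in WT, 28245 to 48981 CPM in Fgf23cKO, 18196 to 21740 CPM in Dmp1KO and 42047 to 62311 CPM in the double mutant cultures. The part of this makeup in the ligand differences was not tested. Here 20 of 44 ligands and 12508 genes were tested. In Dmp1KO relative to WT, 9 ligands fell and 0 rose, where 14.2% of all genes fell and 11.5% rose (25.7% called). In Fgf23cKO 6 fell and 0 rose (16.6% called, 8.48% lower and 8.11% higher), and in the double mutant 8 fell and 0 rose (23.8% called, 12.9% lower and 10.9% higher). The counts against WT lay above the share over all genes, but they took in Ccl19 and Cxcl5. Both passed the filter on low counts through WT alone, so that against WT they could only be called lower. The counts also mixed stromal ligands with others whose stromal-like level, as a percent of the phagocyte-like level, was near that of phagocyte reference genes. At an unadjusted p under 0.05, edgeR passed 12 ligands in Dmp1KO, 8 in Fgf23cKO and 8 in the double mutant, where 32.4%, 26.2% and 30.9% of all genes passed. DESeq2 called 0 ligands higher and 7, 7 and 8 lower, where 11.7%, 6.99% and 10.7% of all genes were lower. The counts depended on single cultures. Without WT culture 2 they were 5, 1 and 3, without either Dmp1KO culture the Dmp1KO count was 3, and the Fgf23cKO count was 3 without WT culture 3 and 2, 2 and 3 without Fgf23cKO culture 1, 2 or 3. With 1 culture left out, 11.3% to 27.2%, 10.7% to 15.8% and 15.9% to 25.4% of all genes were called in the 3 comparisons.

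Cxcl12 in stromal-like cells was at 766, 532 and 241 CPM in WT, 163, 549.5 and 73.1 CPM in Fgf23cKO, 121 and 169 CPM in Dmp1KO, and 310.2, 226 and 245 CPM in Dmp1KO/Fgf23cKO cultures. Both Dmp1KO cultures lay below the WT cultures, and the other genotypes overlapped with WT. The log2 fold change of Cxcl12 was -1.87 in Dmp1KO (SE 0.69, adjusted p = 0.084), and it was not called in Fgf23cKO (-0.95, adjusted p = 0.33) or the double mutant (-1.01, adjusted p = 0.26). The Dmp1KO call of Cxcl12 was lost without WT culture 1 or 2, without either Dmp1KO culture, and without double mutant culture 2 or 3. Without the 1 cell with the most Cxcl12 UMIs in each culture, the levels were 674, 399.6 and 205 CPM in WT, 119.8, 132 and 56.5 CPM in Fgf23cKO, 99.5 and 117 CPM in Dmp1KO, and 166, 128 and 81.0 CPM in double mutant cultures. Every mutant tagged culture then lay below every WT tagged culture, and Dmp1KO was not the lowest. The untagged cells, likewise without their top cell, had another order. They were at 535 CPM in WT, 523 CPM in Fgf23cKO, 128 CPM in Dmp1KO and 424 CPM in the double mutant.

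Cxcl14 in stromal-like cells was at 601, 467 and 245 CPM in WT, 256, 638 and 168 CPM in Fgf23cKO, 88.7 and 99.9 CPM in Dmp1KO, and 89.2, 98.8 and 266 CPM in Dmp1KO/Fgf23cKO cultures. Dmp1KO lay below WT without overlap, with a log2 fold change of -2.27 (SE 0.63, adjusted p = 0.029), opposite in sign to that of phagocyte-like cells. This call was lost without either Dmp1KO culture (adjusted p = 0.17 without culture 2 and 0.14 without culture 3), with a lower level in Dmp1KO whichever culture was left out. The double mutant was called as well (-1.58, adjusted p = 0.062), with 1 culture inside the WT range. In that culture 1 cell held 881 of 929 Cxcl14 UMIs, and the level without it was 14.1 CPM. Within fibroblastic cells, Dmp1KO cultures had 141.9 ± 34.8 CPM of Cxcl12 and 71.75 ± 4.4 CPM of Cxcl14 (SD, n = 2), below the WT means of 974.9 and 811.2 CPM.

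**Figure D5:**
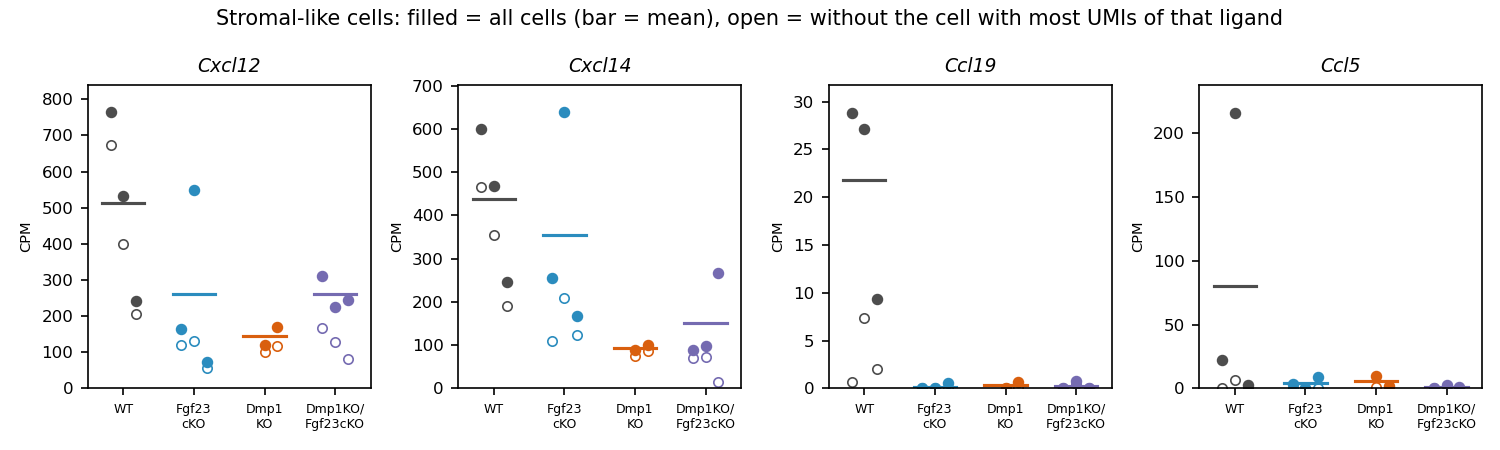
Level of Cxcl12, Cxcl14, Ccl19 and Ccl5 in stromal-like cells by genotype, on axes of CPM. Filled points are tagged cultures and bars their mean, open points leave out the 1 cell with the most UMIs of the gene, and the filled Dmp1KO points lie below all filled WT points for Cxcl12, Cxcl14 and Ccl19.

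Ccl19 was found almost only in WT fibroblastic cells, at 28.8, 27.1 and 9.36 CPM (43, 30 and 23 UMIs) in the 3 WT cultures. The mutant genotypes held 1 UMI in Fgf23cKO, 2 in Dmp1KO and 5 in Dmp1KO/Fgf23cKO stromal-like cells. In edgeR each was called lower (adjusted p = 0.0024, 0.0051 and 0.0013), but Ccl19 passed the filter on low counts through WT alone. A fall was thus the only call it could give against WT, and the calls add nothing to the UMI counts. The WT level came from very few cells, with 42 of 43 UMIs of culture 1, 22 of 30 of culture 2 and 18 of 23 of culture 3 in 1 cell each. Ccl5 was likewise concentrated, with 232 of 239 UMIs of WT culture 2 in 1 cell, and its calls rested on that cell. In each WT culture the top Ccl5 cell had the same total of UMIs as the top Ccl19 cell (18366, 12568 and 13432). The falls of Ccl19 and Ccl5 are therefore not independent of each other. Cxcl5, a Cxcr2 ligand, was at 0.814 to 17.2 CPM in WT and at 0 to 2.25 CPM in the other cultures.

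Ccl27a fell from 16.1, 15.4 and 15.5 CPM in WT to 11.3 and 11.1 CPM in Dmp1KO and 7.57, 7.21 and 6.30 CPM in the double mutant, while the Fgf23cKO cultures were at 12.2, 14.7 and 13.8 CPM. The log2 fold change was -0.57 in Dmp1KO (SE 0.21, adjusted p = 0.084) and -1.20 in the double mutant (SE 0.18, adjusted p = 0.0018), and the Dmp1KO call was lost in DESeq2 and without any WT or Dmp1KO culture. Cx3cl1, the membrane-anchored ligand of Cx3cr1, was at 0.905 to 5.36 CPM in WT, 3.52 to 5.66 CPM in Fgf23cKO, 7.55 and 8.51 CPM in Dmp1KO, and 2.004 to 11.1 CPM in the double mutant, and was not called in Dmp1KO (0.97, adjusted p = 0.34). Cxcl13 varied from culture to culture, with 0, 19.0 and 16.3 CPM in WT and 0, 11.7 and 0 CPM in the double mutant. All 21 of its UMIs in WT culture 2 and 55 of 78 in double mutant culture 2 lay in 1 cell each.

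Of the phagocyte ligands found in stromal-like cells, Ccl2 fell from 131, 175 and 93.6 CPM in WT to 59.0 and 30.5 CPM in Dmp1KO (log2 fold change -1.66, SE 0.37, adjusted p = 0.011), and Ccl3 from 34.9, 85.0 and 53.7 CPM to 17.9 and 27.8 CPM (-1.38, SE 0.40, adjusted p = 0.035). Ccl6 fell from 16.1, 48.8 and 26.4 CPM to 6.21, 4.95 and 4.30 CPM in the double mutant (-2.56, SE 0.44, adjusted p = 0.0035). The sum of phagocyte reference genes in stromal-like cells was 2863 to 7319 CPM in WT, 2356 to 5452 CPM in Fgf23cKO, 2777 to 4186 CPM in Dmp1KO and 2311 to 3078 CPM in the double mutant. Its part in the fall of these ligands was not tested. The call of Ccl2 was lost without Dmp1KO culture 3 and that of Ccl3 without Dmp1KO culture 2, and both were lost when the untagged cells entered as further replicates, with log2 fold changes of -0.84 and -0.49.

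The double mutant differed from Dmp1KO in stromal-like cells by 1 higher and 2 lower ligands, where 5.60% of all genes were higher and 4.05% lower (9.66%), which were Ccl3 (1.19, adjusted p = 0.098), Ccl6 (-2.25, adjusted p = 0.025) and Ccl9 (-1.47, adjusted p = 0.077). The Dmp1KO effect differed with and without Fgf23cKO for 5 ligands, all in the higher direction (18.1% called, 9.97% higher and 8.17% lower). These were Ccl2, Ccl3 and Cxcl1, and the sparse Ccl19 and Cxcl13. Without Dmp1KO culture 2 or 3 the first count was 0 or 1 and the second 1 or 2. The first was 1 without double mutant culture 2 or 3 and 5 without Fgf23cKO culture 2, and the second was 2 without double mutant culture 2 and 3 without Fgf23cKO culture 1. With 1 culture left out, the first comparison called 0.414% to 11.7% and the second 8.36% to 17.7% of all genes.

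The rest of the chemokine system was followed in a list of 29 genes: receptors, atypical receptors, ligands with other symbols and the enzymes that cut ligands. Of the 16 tested in phagocyte-like cells, 3 rose and 11 fell in Dmp1KO relative to WT (37.0% and 35.1% of all genes), 1 rose and 8 fell in Fgf23cKO (24.7% and 23.6%), and 1 rose and 9 fell in the double mutant (27.7% and 28.2%). Among 11 receptors, 2 rose and 8 fell in Dmp1KO. Cxcr4, the receptor of Cxcl12, fell from a mean of 159 CPM in WT to 23.8 CPM in Dmp1KO (log2 fold change -2.44, SE 0.06, adjusted p = 1.6e-13) and was higher in the double mutant than in Dmp1KO by 1.67 (adjusted p = 7.2e-12). Cx3cr1, the receptor of Cx3cl1, fell by 0.47 (adjusted p = 0.0025). Ccr1, the receptor of Ccl6 and Ccl9, rose by 0.59 (adjusted p = 3.9e-04), with means of 25.2 CPM in Dmp1KO and 20.2 CPM in WT and overlap between the cultures. Adam10, which sheds Cxcl16 and Cx3cl1, fell by 0.93 (adjusted p = 8.5e-08). In stromal-like cells, 1 of 12 tested genes rose and 4 fell in Dmp1KO (11.5% and 14.2% of all genes), among them Cxcr4 (-2.68, adjusted p = 0.009), which is also carried by phagocytes.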

How the data were processed

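Bone marrow stromal cell cultures were profiled by 10x 3′ single-cell RNA-seq with sample tags. The submitters' processing notes name the mm10 build and Seurat, and the header of a deposited matrix names Cell Ranger 7.0.1. The deposited matrices hold UMI counts per gene and cell, not normalized, already split by the authors into tagged cultures and untagged cells. Cells with several tags had been removed by the authors, and no doublet caller was run here. Cell Ranger counts reads that map to 1 gene only, so ligands with near-identical copies are uncertain. All 17793 barcodes were used. Of the Dmp1KO cultures, culture 1 (1935 barcodes listed) was not used here.

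Cells were normalized with sctransform 0.4.2 and clustered in Seurat 5.3.0 (R 4.3.3) on 3000 variable genes less 19 ligands, with 30 principal components and resolution 0.8. Clusters were named from fixed marker lists, and those whose leading genes went against the name stayed unnamed. UMIs were summed per class and tagged culture (at least 10 cells) and tested in edgeR 4.0.16 (quasi-likelihood, TMM, filterByExpr), with all 4 genotypes in 1 fit, Benjamini-Hochberg adjustment over all genes and a threshold of 0.1. A fold change on UMI sums is given in log2. DESeq2 1.42.0 was an alternative. Levels are CPM per sum without TMM factors, and spread used cells thinned to 2000 UMIs (Python 3.11.15, numpy 2.4.6). Sums of a culture are exposed to counting error, largest in the 41 to 134 stromal-like cells. The study gives 3 mice and 3 individual cultures per genotype, which shared 1 pool, so p-values measure the spread between cultures within a pool.

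In simulated sums with 200 genes changed 4-fold between Dmp1KO and WT, 100% were recovered in phagocyte-like cells (12618 genes, 12.7% of calls false) and 92% in stromal-like cells (12216 genes, 7.54% false). The changed genes were few, well counted and balanced in direction, whereas 72.1% of genes were called in the phagocyte-like data. The simulation thus gives no rate of recovery or false calls for changes that broad, for smaller folds or for sparse ligands. Ligands with at least 100 UMIs, and those called, were named, and the others were given by counts. The members, lists and marker genes were chosen with earlier results of these data known. Alternatives covered normalization, filters, test, threshold, depth, class definition, the untagged cells, a replicate block and each culture left out. The values of 1 gene of the wider chemokine system are not reported here.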

Additional observations from a re-analysis of the deposited data

Results flagged for a closer look

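The Dmp1KO effect in phagocyte-like cells differed with and without Fgf23cKO, by a test of the difference, for 13 ligands. As log2 differences (effect with Fgf23cKO minus effect without it), these were 2.02 for Ccl12, 1.35 for Ccl2, 2.21 for Ccl24, 1.52 for Ccl3, 1.45 for Ccl4, 3.74 for Ccl5, 1.69 for Ccl7 and 6.01 for Ccl8. The differences were -1.58 for Ccl6, -1.80 for Ccl9, -4.67 for Cxcl14, -0.28 for Cxcl16 and -0.64 for Cxcl2. Among all genes 64.1% had such a difference, that of Ccl5 rested on 1 double mutant culture and that of Ccl8 on 4 UMIs in Fgf23cKO. The cells of the class came from different clusters in the 4 genotypes, and within cluster 1 the difference turned to -0.88 for Ccl2, -0.74 for Ccl7 and -0.36 for Ccl3.

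In stromal-like cells the same difference was called for Ccl2 (1.96), Ccl3 (1.86) and Cxcl1 (1.37), and for the sparse Ccl19 (adjusted p = 0.051) and Cxcl13 (adjusted p = 0.085), for which no fold is given because groups held 0 to 5 UMIs.

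For 3 ligands the cultures of the 2 classes lay on opposite sides of WT, which was not tested as a difference between classes. Cxcl14 in Dmp1KO relative to WT had a log2 fold change of 3.06 in phagocyte-like and -2.27 in stromal-like cells. Cxcl1 in Dmp1KO had 0.84 and -0.87, and Ccl9 in Fgf23cKO had 0.28 and -1.28. The stromal-like Cxcl1 value was not called (adjusted p = 0.12), and the phagocyte-like Ccl9 call was lost without WT culture 3 or Fgf23cKO culture 1 or 3.

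Xcl1, a T and NK cell ligand, reached 10.9 CPM over the untagged cells of the Dmp1KO pool. Of its UMIs there, 155 lay in 8 of 230 stromal-like cells, and 1 cell held 73 of them, whereas all 14577 tagged cells together held 15.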

How the results depend on the processing

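The alternatives with clusters 3 and 4, with cluster 1 or 6 alone and without scaling factors were chosen after seeing the data. Numbers are ligands called in Dmp1KO against WT, Fgf23cKO against WT, the double mutant against WT, the double mutant against Dmp1KO, and the difference of Dmp1KO effects. In stromal-like cells, an adjusted p under 0.05 left 4, 1, 5, 1 and 2 (17.6%, 10.1%, 15.6%, 4.32% and 11.1% of all genes). Thinning to 2000 UMIs left 4, 2 and 3 against WT and 2 for the difference in stromal-like cells (13.7% to 24.1%), and 10 for the double mutant against Dmp1KO in phagocyte-like cells (42.2%). Classes from 6 genes per cell gave 3 for Fgf23cKO and 3 for the difference (13.5% and 15.3%), and the untagged cells as replicates gave 4, 2, 5 (double mutant against Dmp1KO) and 3 (difference) in stromal-like cells (22.8% to 34.6%). Cluster 1 alone gave 8, 6, 6 and 7 (difference), and cluster 6 alone 5, 7, 3 (double mutant against Dmp1KO) and 3 (difference). Without thinning, 15 of 20 ligands had a Fano factor above 2 in phagocyte-like cells, compared with 2 of 14 after thinning. It had to exceed 2 in every culture with enough UMIs of the ligand. The median over all genes moved by -0.295 (log2) in Dmp1KO phagocyte-like cells without scaling factors.

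Single ligands changed sign, mostly within 1 cluster. In cluster 1, log2 fold changes in Dmp1KO were 2.61 for Ccl12, 0.79 for Ccl2, 2.26 for Ccl24, 0.53 for Ccl27a, 0.71 for Ccl3, 0.04 for Ccl4 and 0.87 for Ccl7. In Fgf23cKO they were 1.83 for Ccl12, 0.58 for Ccl2, -0.11 for Ccl25, 0.39 for Ccl27a, 0.27 for Ccl3 and -0.41 for Cxcl2, and in the double mutant 2.08 for Ccl12, -0.07 for Ccl25 and 0.51 for Ccl27a. Between the double mutant and Dmp1KO they were -0.53 for Ccl12, -0.30 for Ccl2, -0.09 for Ccl3, -0.56 for Ccl4, -0.01 for Ccl7, -0.40 for Cxcl1, -0.59 for Cxcl12 and -1.11 for Cxcl2. The difference of effects was -2.36 for Ccl12, -0.88 for Ccl2, -1.88 for Ccl24, -0.36 for Ccl3, -4.41 for Ccl5 and -0.74 for Ccl7. In cluster 6, Dmp1KO gave 0.59 for Ccl2, 0.17 for Ccl27a, 0.65 for Ccl3, -0.59 for Ccl6 and 1.36 for Ccl7, Fgf23cKO gave 0.15 for Ccl2, -0.07 for Ccl25, 0.03 for Ccl3 and -0.54 for Ccl9, and the double mutant gave 0.59 for Ccl12 and -0.00 for Ccl25. Against Dmp1KO the double mutant gave -0.09 for Ccl25, -0.21 for Ccl3, -0.11 for Ccl4 and -1.19 for Cxcl2, and the difference of effects was -0.23 for Ccl3 and -1.10 for Ccl7. With classes from 6 genes, Cxcl16 in Dmp1KO was 0.32, Cxcl12 in Fgf23cKO -1.84, and stromal-like Ccl4 0.18 in Dmp1KO and 0.32 in the double mutant. Cxcl16 in Dmp1KO was 0.29 with clusters 3 and 4, and its difference of effects 0.05 without scaling factors. The cause of these changes of sign was not tested.

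Leaving out each culture in turn gave 12 to 15, 9 to 14, 12 to 15, 13 to 16 and 11 to 14 calls in phagocyte-like cells, and 3 to 9, 1 to 7, 3 to 9, 0 to 5 and 1 to 6 in stromal-like cells, where the shares of all genes called were 63.5% to 73.0%, 40.6% to 48.1%, 48.4% to 57.6%, 58.6% to 71.6% and 56.9% to 63.6%, and 11.3% to 27.2%, 10.7% to 15.8%, 15.9% to 25.4%, 0.414% to 11.7% and 8.36% to 17.7%. Replicate numbers did not pair the cultures (mean correlation of deviations -0.041 and -0.059 in the 2 classes), and the replicate block gave 15, 12, 14, 14 and 13 calls in phagocyte-like cells and 7, 4, 7, 1 and 4 in stromal-like cells (70.5%, 46.4%, 54.2%, 67.0% and 61.9%, and 20.7%, 12.9%, 19.2%, 5.01% and 13.2% of all genes). DESeq2 kept 63 of the called ligand results of phagocyte-like cells and lost 7, and the filter on cells kept all 70. The stromal-like class held few cells per culture, and there single cells could set levels.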

Other observations

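Ccl22, a Ccr4 ligand of dendritic cells and macrophages, was at 6.53 CPM in osteoclast-like cluster 15 and at 0 to 0.163 CPM in the phagocyte-like clusters 0, 1, 2, 6 and 8, on 54 UMIs in all tagged cells. Cxcl9, an interferon-gamma target that binds Cxcr3, was at 4.73 CPM in unnamed cluster 3, which was led by antigen presentation genes, and at 0 to 0.0858 CPM in the same phagocyte-like clusters.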
